A study of Mus musculus with 24 samples.

Results

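The 10 genes described here are markers and effectors of microglia and tissue macrophages, namely Aif1, Cx3cr1, P2ry12, Tmem119, Trem2, Tyrobp, Csf1r, Cd68, Spp1 and Gpnmb. They were taken by symbol and were all found, 10 of the 36109 genes in the lung table and 10 of the 36595 in the retina table. Bulk RNA sequencing was made of whole lungs and whole retinas of mouse pups, 12 libraries for each tissue, in a study of gasdermin D (GSDMD), the pore-forming protein that executes pyroptosis. Each tissue had 4 groups of 3 mice, which were wild-type pups in room air (WT-RA) or hyperoxia (WT-O2) and GSDMD-knockout pups in room air (KO-RA) or hyperoxia (KO-O2). For the lungs, pups breathed 85% or 21% oxygen from postnatal day 1 to 14 and tissue was taken on day 15. For the retinas, pups breathed 75% oxygen from day 7 to 12 and then returned to room air, or stayed in room air throughout, and tissue was taken on day 18. The knockout mice lacked 38 bp of Gsdmd (in exon 5), removed with CRISPR/Cas9 on a C57/B6 background, in every cell of the body. The WT pups were their littermates.

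Microglia of the retina and macrophages of the lung are tissue-resident phagocytes. Microglia survive on signalling through the receptor CSF1R, for which Csf1 and Il34 encode the ligands. In the resting state, microglia carry the chemokine receptor CX3CR1, the purine receptor P2RY12 and the membrane protein TMEM119. When they meet dying cells or lipid debris, signalling through TREM2 and its adaptor TYROBP leads to a phagocytic state, of which CD68, SPP1 (osteopontin) and GPNMB are commonly used as signs.

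The libraries held from 28763661 to 29604254 counts in the lung and from 24863257 to 29093035 in the retina. Levels are given as CPM, the count of a gene relative to the total of its library after scaling with the trimmed mean of M values (TMM), and groups as mean ± SD (n = 3 mice). In the lung, Gsdmd was at 41.4 ± 0.885 CPM in WT-RA and 34.4 ± 2.15 in WT-O2 against 23.98 ± 1.19 in KO-RA and 13.7 ± 2.38 in KO-O2, and every knockout lung was below every WT lung. In the retina Gsdmd was low and did not separate the genotypes, with 4.08, 0.419 and 2.70 CPM in WT-RA, 5.70, 2.90 and 3.85 in WT-O2, 0.980, 0.774 and 0.636 in KO-RA and 1.11, 1.44 and 2.95 in KO-O2. The retina library labelled WT-RA replicate 2 was below all knockout retinas. Genes of the Y chromosome were expressed in 0, 1, 2 and 3 of the 3 lungs of WT-RA, WT-O2, KO-RA and KO-O2, and in 3, 1, 3 and 1 of the 3 retinas, so sex is partly mixed with the groups in both tissues. Lens transcripts were present in 3 retinas, as a sum of 10 lens genes of 25745 and 81407 CPM in WT-RA replicates 2 and 3 and 36718 CPM in KO-RA replicate 3, against 95.2 to 509 CPM in the other 9. In whole tissue, a lower number of cells of a type and less RNA per cell cannot be told apart.

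A gene is called below when its adjusted p was under 0.1, its p under 0.05 and its change at least 2-fold, and is said to have risen or fallen when the first 2 of these held at any fold. The adjusted p is that of edgeR's quasi-likelihood F test, corrected by Benjamini and Hochberg's method over the 16819 lung genes or 19173 retina genes that entered the fit. Changes are on the log2 scale, with the standard error (SE).

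In the lung, hyperoxia went with a large rise of the genes of the phagocytic state in both genotypes. Gpnmb, Spp1, Trem2 and Cd68 were called higher in WT-O2 than in WT-RA and in KO-O2 than in KO-RA, by 2.04-fold to 7.96-fold. Of the resting-state genes, Cx3cr1 rose by less than 2-fold in both genotypes, P2ry12 rose by 1.76-fold in WT, and Tmem119 fell in both. In all, 4 of the 10 genes were called higher in each genotype, against 5.04% of all genes tested in WT and 4.57% in GSDMD-KO.

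Gpnmb encodes a transmembrane glycoprotein of lysosomes and melanosomes that loaded phagocytes make in large amounts. Its level was 9.42, 10.1 and 7.09 CPM in WT-RA and 49.1, 47.3 and 57.96 in WT-O2. In GSDMD-KO lungs it was 9.09, 6.76 and 5.59 CPM in KO-RA and 43.2, 56.96 and 42.4 in KO-O2. Every lung in hyperoxia was above every lung in room air, with a log2 change of 2.54 ± 0.18 (SE) in WT, or 5.81-fold (edgeR adjusted p = 2.5e-07), and of 2.73 ± 0.19 in GSDMD-KO, or 6.65-fold (edgeR adjusted p = 2.1e-07).

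Spp1 encodes osteopontin, a secreted matrix protein that binds integrins. Its level was 10.96, 7.84 and 5.64 CPM in WT-RA and 58.5, 60.7 and 63.7 in WT-O2, and 5.23, 6.03 and 5.80 CPM in KO-RA and 35.7, 44.9 and 55.3 in KO-O2. Room air and hyperoxia were again far apart, and the 3 WT-O2 lungs were all above the 3 KO-O2 lungs. Over all genes tested, 12.2% were free of overlap between WT-O2 and KO-O2 lungs, in either direction. Among the microglia and macrophage genes described here, only Spp1 was. The log2 change with hyperoxia was 2.90 ± 0.21 in WT (edgeR adjusted p = 3.4e-07) and 2.99 ± 0.21 in GSDMD-KO (edgeR adjusted p = 4.3e-07).

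Trem2 encodes the lipid-sensing receptor of the pathway. It was at 4.43, 4.71 and 4.75 CPM in WT-RA and 11.8, 14.6 and 15.6 in WT-O2, and at 4.07, 3.93 and 3.09 CPM in KO-RA and 10.4, 12.6 and 13.2 in KO-O2. The lungs in hyperoxia did not overlap those in room air. Hyperoxia changed it on the log2 scale by 1.59 ± 0.15 in WT (edgeR adjusted p = 1.4e-06) and 1.71 ± 0.15 in GSDMD-KO (edgeR adjusted p = 1.0e-06).

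Cd68 encodes a lysosomal membrane protein of phagocytes. Its level was 42.5, 46.3 and 46.3 CPM in WT-RA and 82.7, 96.2 and 96.97 in WT-O2, and 39.1, 35.7 and 25.6 CPM in KO-RA and 84.01, 96.97 and 72.1 in KO-O2, with no overlap between exposures in either genotype. The change was 1.03 ± 0.14 in WT (edgeR adjusted p = 5.6e-05), just past 2-fold, and 1.33 ± 0.14 in GSDMD-KO (edgeR adjusted p = 7.2e-06). In WT it was just under 2-fold without WT-RA replicate 1 (0.99), WT-O2 replicate 2 (0.998) or WT-O2 replicate 3 (0.99), so the count of called genes was 3 there, with edgeR adjusted p of at most 4.9e-04.

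**Figure D1:**
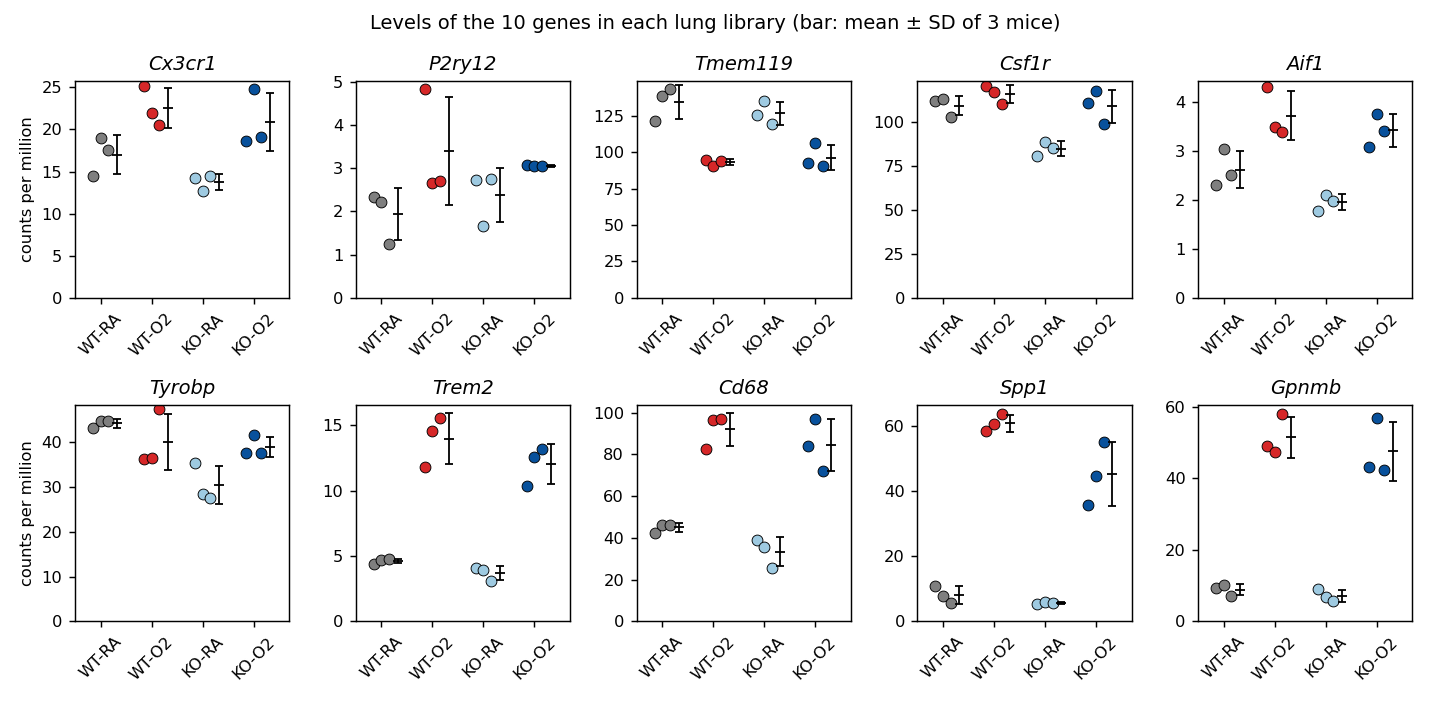
Levels of the 10 genes in the lung in CPM, one panel for each gene, with a point for each mouse and a bar for the mean of WT-RA, WT-O2, KO-RA and KO-O2. The hyperoxia groups of Gpnmb, Spp1, Trem2 and Cd68 lie clear of the room air groups in both genotypes, and those of Tmem119 lie below them.

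The promoters of these 4 genes are shown because the genes moved together in the lung. Each runs from 250 bases before to 50 bases after the RefSeq start of the gene on GRCm38.p6, read 5′ to 3′ on the strand of the gene, and capitals mark matches to 3 motifs searched on both strands, the PU.1 core GAGGAA, the AP-1 motif TGANTCA and the E-box CANGTG. Trem2 is at chr17:48346151-48346450 on the plus strand, Cd68 at chr11:69666121-69666420 on the minus strand, Spp1 at chr5:104434861-104435160 on the plus strand (the first of 2 starts listed) and Gpnmb at chr6:49036268-49036567 on the plus strand.
Trem2: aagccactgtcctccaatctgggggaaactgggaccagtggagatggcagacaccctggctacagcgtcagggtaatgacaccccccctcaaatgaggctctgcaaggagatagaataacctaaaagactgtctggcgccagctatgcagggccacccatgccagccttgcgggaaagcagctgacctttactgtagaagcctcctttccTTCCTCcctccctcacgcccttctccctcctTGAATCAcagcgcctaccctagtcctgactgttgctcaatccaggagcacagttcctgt
Cd68: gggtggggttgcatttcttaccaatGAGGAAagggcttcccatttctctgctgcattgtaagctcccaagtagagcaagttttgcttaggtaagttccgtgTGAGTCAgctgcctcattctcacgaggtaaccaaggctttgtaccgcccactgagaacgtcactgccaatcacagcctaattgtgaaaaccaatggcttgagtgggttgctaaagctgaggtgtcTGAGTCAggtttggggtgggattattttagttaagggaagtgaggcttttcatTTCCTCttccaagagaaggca
Spp1: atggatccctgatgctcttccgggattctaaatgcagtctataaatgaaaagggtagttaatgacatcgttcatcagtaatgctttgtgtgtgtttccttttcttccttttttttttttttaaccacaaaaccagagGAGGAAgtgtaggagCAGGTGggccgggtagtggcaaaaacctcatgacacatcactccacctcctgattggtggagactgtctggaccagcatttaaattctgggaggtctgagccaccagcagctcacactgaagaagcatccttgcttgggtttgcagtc
Gpnmb: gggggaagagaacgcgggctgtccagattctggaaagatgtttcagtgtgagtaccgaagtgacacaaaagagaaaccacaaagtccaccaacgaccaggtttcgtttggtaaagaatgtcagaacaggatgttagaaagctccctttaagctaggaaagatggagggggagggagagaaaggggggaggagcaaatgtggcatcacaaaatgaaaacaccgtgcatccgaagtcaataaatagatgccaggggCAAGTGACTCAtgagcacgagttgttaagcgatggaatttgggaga
PU.1 is the factor that defines the myeloid lineage and AP-1 is a factor of the stress response. The E-box CANGTG is a general form, and its matches in these windows were CAGGTG in Spp1 and CAAGTG in Gpnmb. The AP-1 motif TGANTCA leaves its middle base open, and its matches were TGAATCA in Trem2, TGAGTCA in Cd68 and TGACTCA in Gpnmb. The PU.1 core was in the windows of Trem2, Cd68 and Spp1, the AP-1 motif in those of Trem2, Cd68 and Gpnmb, and the E-box in those of Spp1 and Gpnmb, where it shared bases with the AP-1 motif. Of 32851 mouse promoters of the same length, 28.3% held the PU.1 core, 7.81% the AP-1 motif and 44.9% the E-box. RefSeq promoters were matched for 7 of the 10 genes, all but Tmem119, Tyrobp and Csf1r. Over these 7, 4 held the PU.1 core, 3 the AP-1 motif and 5 the E-box. These matches describe the letters of the windows only.

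The adaptor and the growth factor receptor moved less in the lung, and their movement was seen in GSDMD-KO. Tyrobp, the signalling adaptor of TREM2, was at 43.00, 44.7 and 44.8 CPM in WT-RA and 36.2, 36.5 and 47.2 in WT-O2, and these overlapped. It was at 35.3, 28.4 and 27.6 CPM in KO-RA and 37.6, 41.4 and 37.6 in KO-O2, which did not overlap. On the log2 scale the change was -0.14 ± 0.11 in WT (edgeR adjusted p = 0.329) and 0.35 ± 0.11 in GSDMD-KO (edgeR adjusted p = 0.0236).

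Csf1r, the receptor on which microglial survival depends, was at 112, 113 and 103 CPM in WT-RA and 121, 118 and 111 in WT-O2. Its level was 80.7, 88.9 and 85.6 CPM in KO-RA and 111, 118 and 99.1 in KO-O2, so only the knockout groups were free of overlap. The log2 change was 0.087 ± 0.079 in WT (edgeR adjusted p = 0.409) and 0.36 ± 0.080 in GSDMD-KO (edgeR adjusted p = 0.00243). The differences between genotypes in these changes are given with the interaction test.

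Among the resting-state genes, Cx3cr1, the receptor for fractalkine, rose from 17.01 ± 2.31 to 22.5 ± 2.35 CPM in WT (log2 change 0.41 ± 0.13, edgeR adjusted p = 0.0234). In GSDMD-KO it rose from 13.8 ± 0.967 to 20.9 ± 3.46 CPM (log2 change 0.60 ± 0.13, edgeR adjusted p = 0.00265). The exposures did not overlap in either genotype, and the lowest WT-O2 lung was at 20.5 CPM against 19.0 for the highest WT-RA lung. Aif1, which encodes the calcium-binding protein IBA1 used to stain microglia, was low, at 2.61 ± 0.373 and 3.72 ± 0.504 CPM in WT (log2 change 0.51 ± 0.18, edgeR adjusted p = 0.0363) and at 1.95 ± 0.164 and 3.41 ± 0.337 CPM in GSDMD-KO (log2 change 0.81 ± 0.19, edgeR adjusted p = 0.00317). In WT, the edgeR adjusted p without WT-RA replicate 1 was 0.126 for Aif1 and 0.101 for Cx3cr1, and without WT-O2 replicate 1 it was 0.145 and 0.0980.

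P2ry12, the ADP receptor of resting microglia, was low. It was at 2.34, 2.22 and 1.24 CPM in WT-RA and 4.84, 2.65 and 2.70 in WT-O2, and at 2.73, 1.65 and 2.75 CPM in KO-RA and 3.08, 3.04 and 3.04 in KO-O2. The exposures were narrowly free of overlap in both genotypes. The log2 change was 0.81 ± 0.29 in WT (edgeR adjusted p = 0.0367) and 0.36 ± 0.29 in GSDMD-KO (edgeR adjusted p = 0.346). In WT it lost the threshold without WT-RA replicate 3 (0.58, edgeR adjusted p = 0.119) or WT-O2 replicate 1 (0.47, edgeR adjusted p = 0.218). The gene lies inside Med12l, on the opposite strand.

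Tmem119 went the other way. This gene is a marker of microglia in the nervous system and is also known from bone-forming mesenchymal cells. Its lung level was 122, 139 and 144 CPM in WT-RA and 95.1, 90.9 and 94.2 in WT-O2, and 126, 135 and 119 CPM in KO-RA and 92.8, 106 and 90.6 in KO-O2. Every lung in hyperoxia was below every lung in room air, with a log2 change of -0.53 ± 0.086 in WT (edgeR adjusted p = 2.1e-04) and -0.40 ± 0.086 in GSDMD-KO (edgeR adjusted p = 0.00215).

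Counted at any fold, 8 of the 10 genes changed in WT lungs (7 higher, 1 lower) and 9 in GSDMD-KO lungs (8 higher, 1 lower), against 49.2% and 46.7% of all genes tested. The exposures were free of overlap for 8 genes in WT and 10 in GSDMD-KO, against 49.8% and 52.4% of all genes. The median log2 change of the 10 genes was 0.66 in WT and 0.70 in GSDMD-KO, and that of all genes tested was -0.0069 and -0.013.

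Per kilobase of principal transcript, the order of the levels in WT-RA lungs was Tyrobp (78.3 ± 1.77 CPM per kb), Tmem119 (60.1 ± 5.17), Cd68 (36.6 ± 1.75), Csf1r (23.3 ± 1.17), Spp1 (5.41 ± 1.77), Trem2 (4.26 ± 0.158), Cx3cr1 (3.79 ± 0.514), Aif1 (2.99 ± 0.426), Gpnmb (2.39 ± 0.423) and P2ry12 (0.824 ± 0.258). The neighbours from Spp1 to Gpnmb overlapped within their spread, each with the next. In WT-O2 lungs, Cd68 (74.8 ± 6.53 CPM per kb) and Tyrobp (70.8 ± 11.2) led and overlapped, as did Tmem119 (41.7 ± 0.980) and Spp1 (40.5 ± 1.74), and Gpnmb was at 13.9 ± 1.54 beside Trem2 at 12.9 ± 1.80. No such order is given for the retina, whose counts fell off with transcript length relative to the lung's (log2 slope -0.586 per doubling of length over 10698 genes).

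The ligands of these receptors and the genes downstream of them were read as lists. Over all lung genes, 24.5% rose and 24.7% fell in WT, and 23.3% rose and 23.4% fell in GSDMD-KO, and the list counts are to be read against these shares. Of 10 ligand genes, 5 rose and 2 fell in each genotype. Gas6, which bridges dying cells to phagocyte receptors, rose by 1.20 in WT and 1.00 in GSDMD-KO on the log2 scale, and Clu, a lipid carrier that TREM2 binds, by 1.74 and 1.77. Csf1 rose by 0.69 and 0.95 and Cx3cl1, the ligand of CX3CR1, by 0.42 and 0.79. The inhibitory ligand gene Cd200 fell by 1.02 and 0.40, and Apoe changed by -0.14 and -0.17 without passing the test. Of 18 genes of TREM2 and CSF1R signalling, 2 rose and 6 fell in WT, and 5 rose and 5 fell in GSDMD-KO, in all a share near that of all genes (49.2% and 46.7%). The kinase genes Lyn (-0.89 and -0.65) and Syk (-0.71 and -0.78) fell and the transcription factor gene Runx1 (0.90 and 0.90) rose. The median of this list was -0.048 in WT and 0.11 in GSDMD-KO.

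Beside the same shares over all lung genes, of 22 genes known from damage-associated microglia, 13 rose and 5 fell in WT, and 15 rose and 4 fell in GSDMD-KO, with medians of 0.44 and 0.86. Among them, Igf1, a growth factor gene, changed by 2.47 and 2.51, and Ch25h, which encodes cholesterol 25-hydroxylase, by 2.22 and 1.73. Cd52, Axl, Fabp5 and Cd9 fell in both genotypes and Cybb fell in WT. Of 17 genes shared by most macrophages, 12 rose and 3 fell in WT, and 13 rose and 2 fell in GSDMD-KO. The complement genes C1qa (1.12 and 0.84) and C1qb (1.11 and 0.87) were among those that rose. Ptprc and Lyz2 fell in both genotypes and Cd53 fell in WT. The summed level of this list was 2565 to 3595 CPM in WT-RA and 2345 to 2628 in WT-O2. In GSDMD-KO it was 2688 to 2820.3 CPM in KO-RA and 2046 to 2336 in KO-O2. Unlike most of its genes, the sum was thus lower on average in hyperoxia, with overlap in WT and without it in GSDMD-KO. Of 16 genes known from resting microglia, 7 rose and 0 fell in WT, and 7 rose and 2 fell in GSDMD-KO. Sall1, a microglial transcription factor gene that other organs also use, led (3.57 and 3.66). The 16 genes summed to 4841 to 5255 CPM in WT-RA lungs, above the shared macrophage genes. Which lung cells made them was not tested.

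Markers of alveolar macrophages, the resident phagocytes of the air spaces, did not move as one. Of 13 such genes, 5 rose and 6 fell in WT, and 6 rose and 4 fell in GSDMD-KO. Ear1 (-3.60 and -3.10) and Krt79 (-2.23 and -2.36) fell while Marco, a scavenger receptor gene (1.30 and 2.35), and Olr1, a receptor gene for oxidised lipoprotein (1.17 and 1.66), rose. Their summed level was 462 to 862 CPM in WT-RA, 212 to 401 in WT-O2, 192 to 223 in KO-RA and 174 to 266 in KO-O2, so it was highest in WT-RA. Of 12 monocyte genes, 4 rose and 6 fell in WT and 5 rose and 4 fell in GSDMD-KO, and their sum was 3201 to 3319 CPM in WT-RA, 4761 to 6357 in WT-O2, 3223 to 3412 in KO-RA and 4618 to 6411 in KO-O2. Of 9 red cell genes tested, 9 fell in WT and 2 in GSDMD-KO, and their sum was 15776 to 18181 CPM in WT-RA, 2924 to 4157 in WT-O2, 12706 to 26888 in KO-RA and 5978 to 29962 in KO-O2. Between exposures the alveolar macrophage and red cell sums were lower in WT-O2 than in WT-RA without overlap, while they overlapped in GSDMD-KO. The monocyte sum was higher in hyperoxia without overlap in both genotypes. The part of these cells in the changes of the 10 genes was not tested.

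Between the genotypes in hyperoxia, which asks whether loss of GSDMD went with a different macrophage state in injured lungs, none of the 10 genes was called. The background was 0.0238% of all genes, 4 of 16819. By unadjusted p, 1 of the 10 was under 0.05, against 6.21% of all genes, and this was Spp1, with 60.99 ± 2.62 CPM in WT-O2 and 45.3 ± 9.79 in KO-O2 (log2 difference -0.43 ± 0.18, 95% interval -0.83 to -0.029, edgeR adjusted p = 0.774). DESeq2 also called 0 of the 10. The log2 difference was -0.21 for Trem2 (95% interval -0.52 to 0.089), -0.11 for Gpnmb (-0.47 to 0.24) and -0.12 for Cd68 (-0.42 to 0.17). These intervals leave room for moderate differences, and the values of these 3 genes overlapped between WT-O2 and KO-O2.

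In room air the knockout lungs were lower for several of the genes. None of the 10 was called, against 0.137% of all genes, while at any fold 2 fell, against 0.488% of all genes. These were Tyrobp, with 44.2 ± 1.00 CPM in WT-RA and 30.4 ± 4.23 in KO-RA (log2 difference -0.54 ± 0.11, edgeR adjusted p = 0.0856), and Csf1r, with 109.5 ± 5.49 and 85.1 ± 4.15 CPM (log2 difference -0.36 ± 0.080, edgeR adjusted p = 0.0922). An unadjusted p under 0.05 was also found for 4 others, Cd68 at -0.43, Spp1 at -0.52, Aif1 at -0.42 and Cx3cr1 at -0.30, which makes 6 of 10 against 10.5% of all genes. For 6 of the 10 genes every KO-RA lung was below every WT-RA lung, and for none above, against 15.2% of all genes in either direction. DESeq2 called 0 of the 10 at 2-fold in this comparison, and gave an adjusted p of 0.00467 for Tyrobp and 0.00355 for Csf1r. In edgeR the adjusted p of both Tyrobp and Csf1r was over 0.1 without any one of WT-RA replicates 1 and 2 and KO-RA replicates 2 and 3, that of Csf1r also without KO-RA replicate 1 (0.185), and both were far over it with Y-linked expression as a covariate (0.351 and 0.401).

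The same room air contrast touched other macrophage genes. Fcer1g, an adaptor gene that works like Tyrobp, changed by -0.61 on the log2 scale (edgeR adjusted p = 0.0292), and 3 of the 22 damage-associated genes, 2 of the 17 shared macrophage genes and 2 of the 13 alveolar macrophage genes fell, against 0.345% of all genes, with none of these lists' genes rising. In hyperoxia no gene of these lists differed between the genotypes at an adjusted p under 0.1. The sum of the alveolar macrophage genes was lower in every KO-RA lung (208, 223 and 192 CPM) than in every WT-RA lung (612, 862 and 462 CPM), and its part in the lower members was not tested. In the test of whether hyperoxia acted differently in the 2 genotypes, 0 of the 10 genes passed an adjusted p under 0.1, against 0.00595% of all genes. Tyrobp (0.50 ± 0.16, edgeR adjusted p = 0.544) and Csf1r (0.27 ± 0.11, edgeR adjusted p = 0.682) had an unadjusted p under 0.05, against 6.72% of all genes, and DESeq2 called 0 of the 10.

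In the retina, several phagocyte genes were higher after hyperoxia. Cd68 and Trem2 were called higher in both genotypes, and Tyrobp and Cx3cr1 were called in GSDMD-KO as well, while Spp1 and Gpnmb, which led in the lung, were lower on average and did not pass the test. The counts were 2 of 10 in WT and 4 of 10 in GSDMD-KO, against 1.77% and 1.64% of all genes called higher. At any fold 3 rose in WT and 4 in GSDMD-KO, against 5.16% and 7.82% of all genes changed in either direction.

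Cd68 was at 5.88, 8.12 and 8.27 CPM in WT-RA and 13.2, 14.9 and 18.99 in WT-O2. In GSDMD-KO it was at 3.99, 3.97 and 4.29 CPM in KO-RA and 8.92, 17.6 and 10.7 in KO-O2. Every retina after hyperoxia was above every room air retina of its genotype, and the 3 KO-RA values were close together and below the 3 WT-RA values. Over all genes tested, 17.7% were free of overlap between WT-RA and KO-RA retinas, in either direction. Among the microglia and macrophage genes described here, only Cd68 was. The log2 change of Cd68 with hyperoxia was 1.08 ± 0.24 in WT (edgeR adjusted p = 0.0428) and 1.60 ± 0.25 in GSDMD-KO (edgeR adjusted p = 0.00843).

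Trem2 was low, at 1.28, 0.648 and 2.01 CPM in WT-RA and 4.66, 2.37 and 3.57 in WT-O2, and at 0.980, 1.08 and 0.715 CPM in KO-RA and 3.68, 2.94 and 2.58 in KO-O2. Exposures did not overlap in either genotype. The log2 change was 1.43 ± 0.39 in WT (edgeR adjusted p = 0.0876) and 1.72 ± 0.40 in GSDMD-KO (edgeR adjusted p = 0.0400).

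Tyrobp was at 8.40, 5.87 and 10.4 CPM in WT-RA and 9.70, 17.3 and 25.02 in WT-O2, which overlapped, and at 4.06, 4.71 and 6.00 CPM in KO-RA and 17.6, 13.1 and 13.7 in KO-O2, which did not. Its log2 change was 1.08 ± 0.31 in WT (edgeR adjusted p = 0.1001), just short of the threshold, and 1.59 ± 0.32 in GSDMD-KO (edgeR adjusted p = 0.0225). Cx3cr1 was at 4.04, 3.01 and 3.73 CPM in WT-RA and 5.85, 6.92 and 8.03 in WT-O2, and at 3.89, 3.63 and 3.42 CPM in KO-RA and 6.21, 8.68 and 7.46 in KO-O2, with no overlap in either. The log2 change was 0.95 ± 0.19 in WT (edgeR adjusted p = 0.0249) and 1.03 ± 0.19 in GSDMD-KO (edgeR adjusted p = 0.0152).

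The WT calls in the retina rested on few libraries. The count of 2 became 0 without the library labelled WT-RA replicate 2, which had low Gsdmd, 0 without WT-O2 replicate 2 or WT-O2 replicate 3, and 1 without WT-RA replicate 1. With the 3 retinas that held lens transcripts left out, which leaves WT-RA with 1 library assumed to vary like the other groups, it was 0, with log2 changes of 1.41 for Cd68 (edgeR adjusted p = 0.123) and 1.46 for Trem2 (edgeR adjusted p = 0.146). The adjusted p of Trem2 in WT was 0.252 without WT-O2 replicate 1, 0.113 without WT-O2 replicate 2, 0.195 without WT-O2 replicate 3, 0.229 without WT-RA replicate 1 and 0.203 without the library labelled WT-RA replicate 2 (edgeR). That of Cx3cr1 in WT was 0.103 without the last of these and 0.185 without the lens-bearing retinas. In GSDMD-KO the count of 4 was 3 without the lens-bearing retinas or without KO-RA replicate 1, and 2 without KO-RA replicate 3 or KO-O2 replicate 2. Across these alternatives the changes of Cd68 and Trem2 stayed positive.

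**Figure D2:**
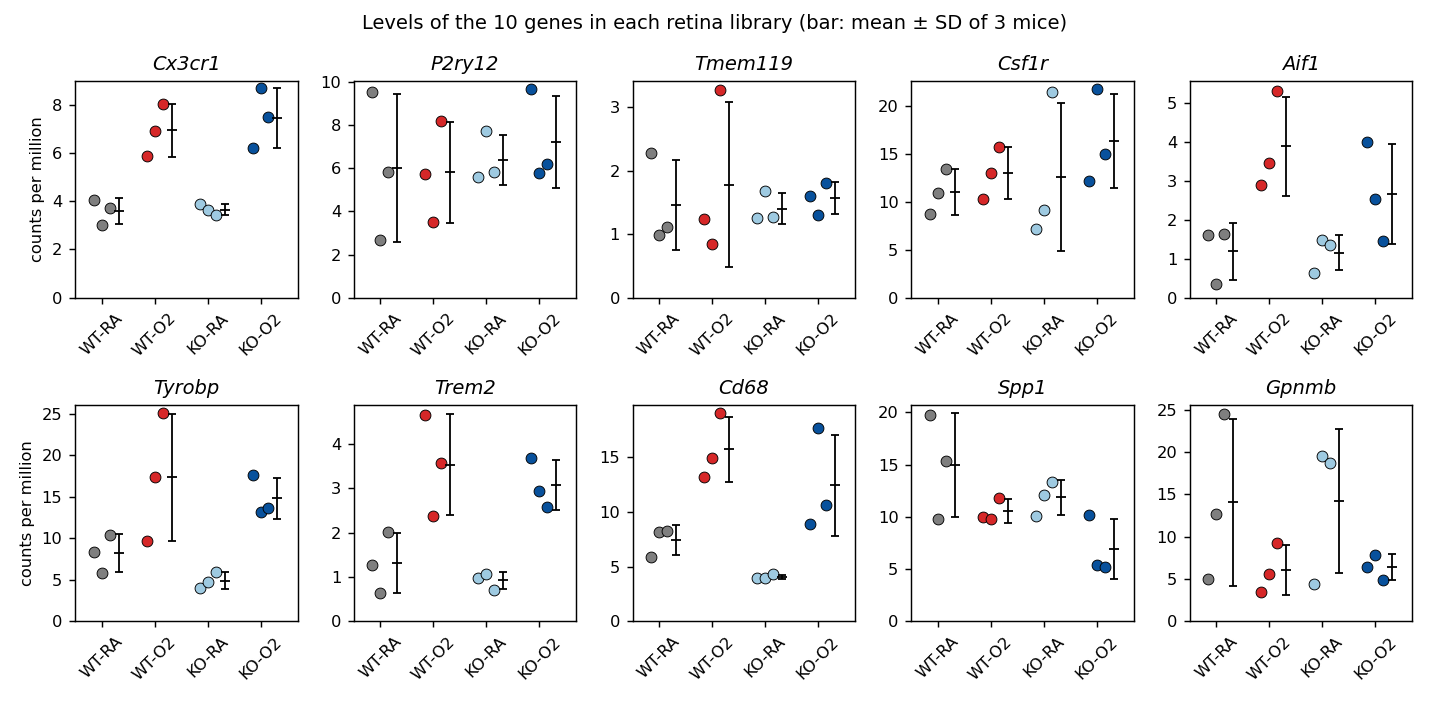
Levels of the 10 genes in the retina in CPM, one panel for each gene, with a point for each mouse and a bar for the mean of WT-RA, WT-O2, KO-RA and KO-O2. Cd68, Trem2 and Cx3cr1 were higher after hyperoxia without overlap in either genotype, while Gpnmb ranged from 4.46 to 24.5 CPM among the room air retinas.

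The remaining genes of the microglial set did not pass the test in the retina. Aif1 was at 1.60, 0.343 and 1.63 CPM in WT-RA, 2.89, 3.46 and 5.31 in WT-O2, 0.642, 1.48 and 1.35 in KO-RA and 3.99, 2.53 and 1.46 in KO-O2. The WT groups did not overlap and the knockout groups did, by 1 library, with log2 changes of 1.71 ± 0.56 (edgeR adjusted p = 0.146) and 1.20 ± 0.56 (edgeR adjusted p = 0.258). Csf1r ranged from 7.20 to 21.4 CPM in room air and from 10.3 to 21.7 CPM after hyperoxia, with log2 changes of 0.24 ± 0.37 and 0.38 ± 0.37. P2ry12, at 2.67 to 9.68 CPM, changed by -0.048 ± 0.42 and 0.18 ± 0.42, and Tmem119, at 0.84 to 3.27 CPM, by 0.28 ± 0.49 and 0.16 ± 0.49, and the groups overlapped for all 3 genes. Non-overlapping exposures were found for 4 of the 10 genes in WT and 4 in GSDMD-KO, all higher after hyperoxia, against 24% and 26.2% of all genes in either direction.

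Spp1 and Gpnmb were lower on average after hyperoxia in the retina, the opposite of the lung, and neither passed the test. Spp1, which retinal ganglion cells also make, was at 19.8, 9.83 and 15.3 CPM in WT-RA and 9.97, 9.85 and 11.8 in WT-O2, and at 10.1, 12.1 and 13.4 CPM in KO-RA and 10.2, 5.37 and 5.26 in KO-O2. The groups overlapped in both genotypes, with log2 changes of -0.50 ± 0.28 (edgeR adjusted p = 0.392) and -0.77 ± 0.29 (edgeR adjusted p = 0.161). Of 11 ganglion cell genes, 4 fell and 0 rose in WT and 5 fell and 1 rose in GSDMD-KO. Of all genes tested, 2.05% fell in WT and 3.44% in GSDMD-KO. The sum of the ganglion cell genes was 1355 to 1841 CPM in WT-RA, 1113 to 1241 in WT-O2, 1362 to 1529.7 in KO-RA and 1143 to 1255 in KO-O2. Their part in the Spp1 values was not tested.

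Gpnmb, which pigment cells also make, was at 5.00, 12.7 and 24.5 CPM in WT-RA and 3.42, 5.55 and 9.22 in WT-O2, and at 4.46, 19.5 and 18.7 CPM in KO-RA and 6.45, 7.90 and 4.85 in KO-O2. The 4 values over 12 CPM were all room air retinas, the 3 that held lens transcripts and KO-RA replicate 2. Its change on the log2 scale was -1.21 ± 0.64 in WT (edgeR adjusted p = 0.370) and -1.15 ± 0.64 in GSDMD-KO (edgeR adjusted p = 0.353). Without the lens-bearing retinas it was 0.28 in WT, with the opposite sign, and -0.90 in GSDMD-KO. The sum of 12 pigment epithelium genes was 232, 546 and 718 CPM in WT-RA and 364, 468 and 2881 in KO-RA, against 112 to 294 CPM in the hyperoxia retinas. The part of lens and pigment tissue in the Gpnmb values was not tested beyond this.

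**Figure D3:**
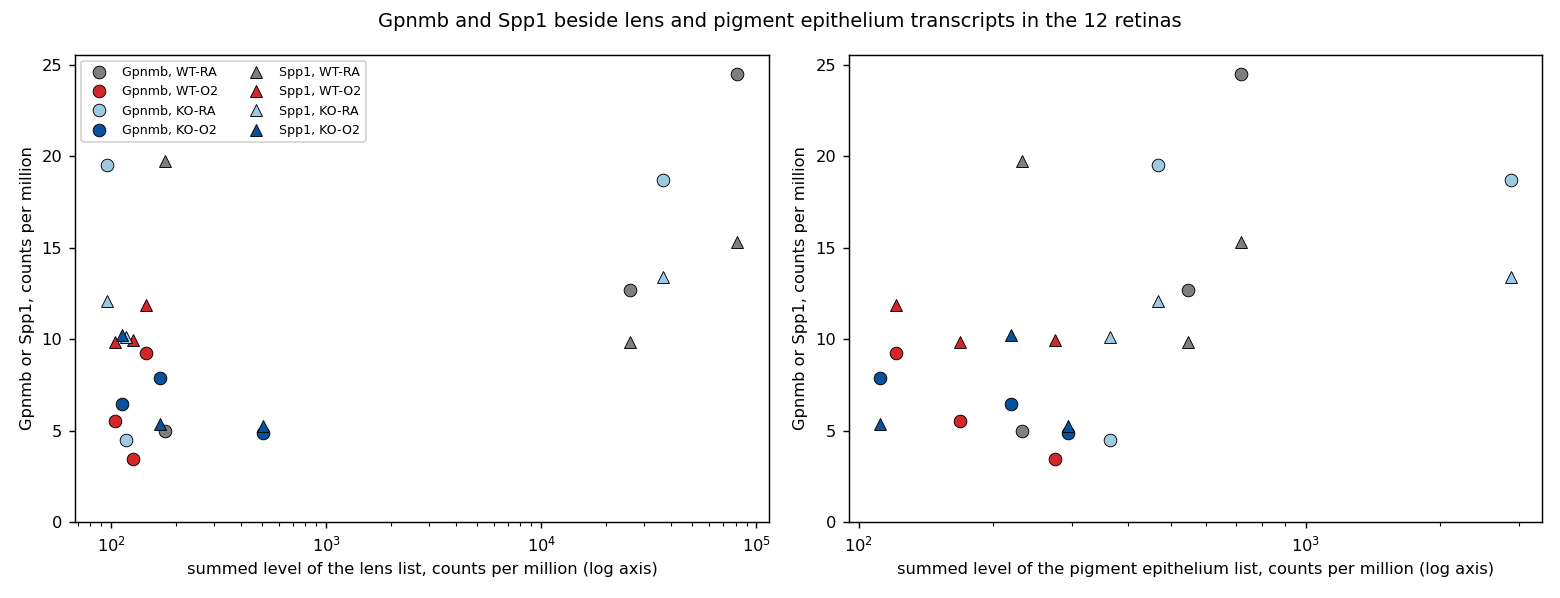
Gpnmb and Spp1 levels in each of the 12 retinas in CPM against the summed CPM of 10 lens genes and of 12 pigment epithelium genes, on a logarithmic horizontal axis, with a point for each mouse marked by group. The 3 retinas with lens transcripts are room air retinas with 25745 to 81407 CPM of lens transcripts, and they hold 12.7 to 24.5 CPM of Gpnmb.

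Other macrophage genes rose in the retina beside the members. Of 16 shared macrophage genes tested, 5 rose in WT and 7 in GSDMD-KO, none fell, against 3.11% and 4.38% of all genes that rose, and the medians were 1.16 and 1.29 against 0.00092 and 0.00074 for all genes. They included Mpeg1, a pore-forming protein gene of phagocytes (1.35 and 1.58), and C1qb (1.42 and 1.49). The summed level of the 17 listed genes was 76.3, 50.1 and 84.9 CPM in WT-RA and 133, 138 and 189 in WT-O2, and 55.97, 59.2 and 60.6 CPM in KO-RA and 144, 158 and 115 in KO-O2, with no overlap between exposures. Of 16 genes of resting microglia, 3 rose in WT and 4 in GSDMD-KO, among them Fcrls (2.01 and 1.50) and Sparc (0.51 and 0.60). The 16 genes summed to 1999 to 2502 CPM in WT-RA retinas, against 50.1 to 84.9 CPM for the shared macrophage genes. The part of other cells in this list was not tested. Of 21 damage-associated genes, 3 rose in WT and 4 in GSDMD-KO, led by Axl, a receptor gene for dying cells (0.79 and 1.08). None of either list fell in the retina. The 3 damage-associated genes that rose in WT retinas, Axl, Cd9 and Cd52, fell in the lung in both genotypes. Rlbp1, a Müller glia gene, was at 462 ± 93.2 CPM in WT-RA retinas. Marco, at 13.5 ± 1.42 CPM in WT-RA lungs, was at 0 to 0.0312 CPM in the 12 retinas.

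Over all retina genes, 3.11% rose and 2.05% fell in WT, and 4.38% rose and 3.44% fell in GSDMD-KO. The list counts below are to be read against these shares. Of the 10 ligand genes, 2 rose in each genotype of the retina, Tgfb1 (1.07 and 0.93), which maintains microglia, and Pros1 (0.96 and 1.17), a bridging ligand of phagocyte receptors. Csf1 (0.61 and 0.95) and Il34 (-0.15 and 0.37) did not pass the test. Of 17 signalling genes tested, 3 rose in WT and 3 rose and 1 fell in GSDMD-KO, and Lyn (1.53 and 1.01), Lcp2 (1.37 and 1.10) and Fcer1g (0.93 and 0.94) were those that rose in WT. Mitf, a transcription factor gene of pigment cells and phagocytes, fell in GSDMD-KO (-0.91). The pigment epithelium sum was 364 to 2881 CPM in KO-RA and 112 to 294 CPM in KO-O2 retinas. The part of pigment tissue in the Mitf value was not tested. Endothelial genes moved with the same exposure, with 10 of 10 higher in WT and 9 of 10 in GSDMD-KO, and summed levels of 140.3 to 169 CPM in WT-RA, 299.5 to 353 in WT-O2, 157 to 171 in KO-RA and 248 to 298 in KO-O2. Their part in the changes of the 10 genes was not tested.

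**Figure D4:**
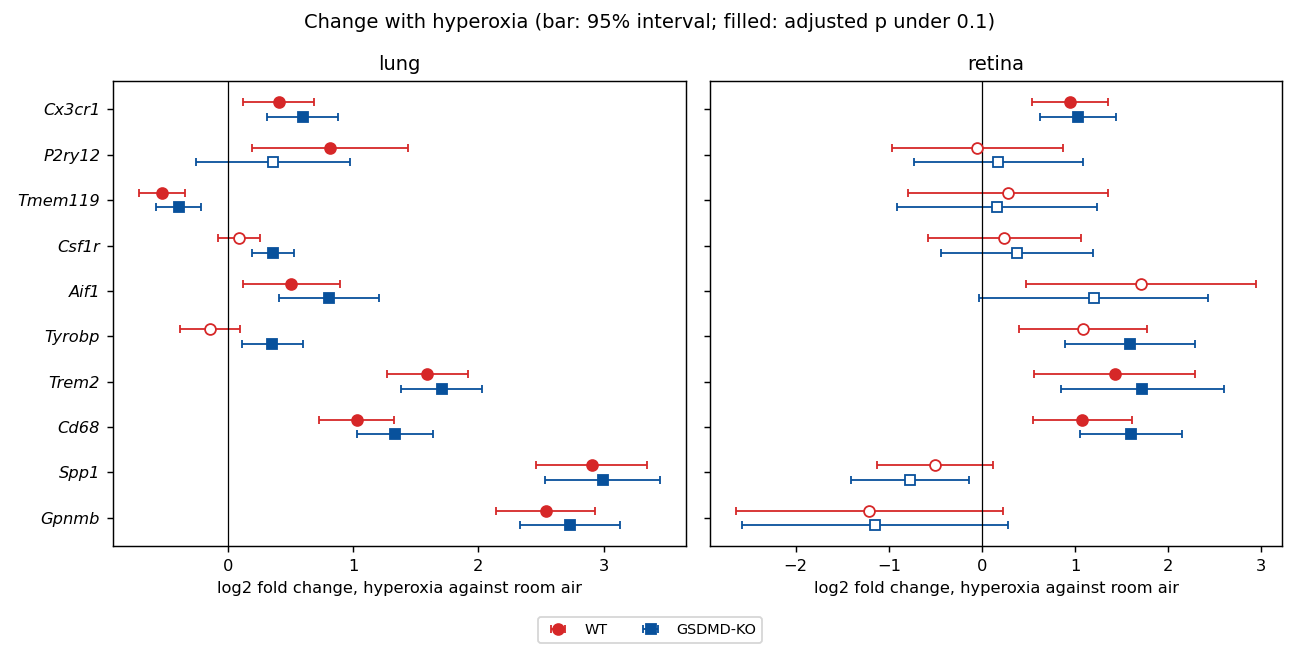
Log2 change with hyperoxia of each of the 10 genes in the lung and the retina, in WT and in GSDMD-KO, with bars for the 95% interval and filled points where the edgeR adjusted p was under 0.1. Spp1 and Gpnmb lie between 2.54 and 2.99 in the lung and between -1.21 and -0.50 in the retina, while Trem2 and Cd68 lie above 1 in both tissues.

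Between the genotypes in the retina, 0 of the 10 genes were called after hyperoxia, against 0.292% of all genes, and none had an unadjusted p under 0.05, against 12.6%. DESeq2 called 0 as well. The log2 difference between KO-O2 and WT-O2 was -0.34 for Cd68 (95% interval -0.86 to 0.19), -0.20 for Trem2 (-1.04 to 0.63), -0.23 for Tyrobp (-0.90 to 0.44) and -0.60 for Spp1 (-1.23 to 0.028). In room air 0 of the 10 were called, against 0.00522% of all genes. Here Cd68, with 7.42 ± 1.34 CPM in WT-RA and 4.08 ± 0.181 in KO-RA (log2 difference -0.86 ± 0.25, edgeR adjusted p = 0.243), and Tyrobp (log2 difference -0.74 ± 0.32, edgeR adjusted p = 0.372) had an unadjusted p under 0.05, against 12.7% of all genes, and DESeq2 called 0. No gene passed the test of the interaction, against 0.00522% of all genes, none had an unadjusted p under 0.05, against 10.6%, and DESeq2 called 0.

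**Figure D5:**
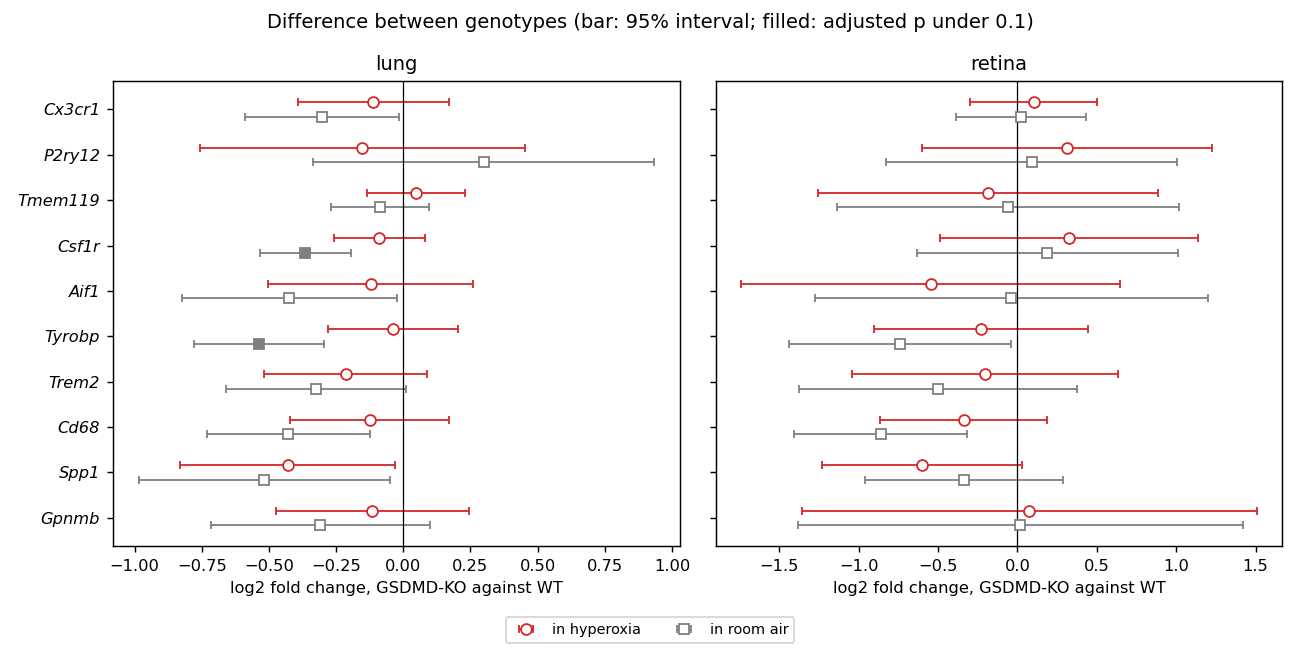
Log2 difference between GSDMD-KO and WT of each of the 10 genes, in room air and in hyperoxia, in the lung and the retina, with bars for the 95% interval and filled points where the edgeR adjusted p was under 0.1. The filled points are Tyrobp (-0.54) and Csf1r (-0.36) in room air lungs.

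Across the 12 lungs, Gpnmb, Spp1 and Trem2 ran closely together, with a Pearson r of log2 CPM of 0.98 for each pair, and Tmem119 ran against Spp1 (r = -0.93). Aif1 and Cx3cr1 formed another pair (r = 0.95). Across the 12 retinas, Cd68 went with Tyrobp (r = 0.85), Cx3cr1 with Trem2 (r = 0.83) and Aif1 with Tyrobp (r = 0.84), while P2ry12 went with Tmem119 (r = 0.75). These values describe libraries that share 4 groups, an exposure and a scaling, and were not tested.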

How the data were processed

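RNA was taken from 12 lungs and 12 retinas, each of a separate mouse, and groups follow the genotype and exposure that the labels give. The authors checked the reads with FastQC, quantified transcripts with kallisto, collapsed these to genes with tximport and deposited the estimated counts as 1 table for each tissue, without scaling to library size. The labels name mm10 as the build and the methods a later one. Nonzero counts were whole, within 0.001, in 44.9% of cases for the lung table and 0.350% for the retina table, so the tables may have been scaled differently, and tests were made within a tissue. Totals per library are given with the levels, and 3 mice a group limit the precision.

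Symbols were found for 35816 of 36109 lung genes and 35968 of 36595 retina genes, and genes without one held 0.0751% to 0.0904% and 0.635% to 0.788% of the counts and stayed in the fits. Counts were rounded and tested in R 4.3.3 with edgeR 4.0.16 (TMM factors, filterByExpr, robust quasi-likelihood fit, 12 libraries and 1 term per group in each tissue). Alternatives were RLE size factors, library totals alone, DESeq2 1.42.0, no filter on low counts, a fit of only the groups compared, Y-linked expression as a covariate, no fold threshold, each library left out and, chosen after seeing the data, leaving out retinas in which lens genes held over 1% of counts. The code was tested on simulated data in which 200 genes were changed. Promoters came from RefSeq (GRCm38.p6), and lengths and overlaps from GENCODE on GRCm38.

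The 10 genes and all gene lists were chosen with earlier results of these data known. All 10 were named, and of each list at most 3 genes with the smallest p per comparison, with any gene of the ligand and signalling lists. The genes of the shared macrophage and damage-associated lists that fell with hyperoxia in the lung were named as well. The treatment protocol in the labels describes cultured cells and was not used.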

Additional observations from a re-analysis of the deposited data

Results flagged for a closer look

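Spp1 and Gpnmb rose with hyperoxia in the lung and had lower means after hyperoxia in the retina. Each lung in hyperoxia was above the mean of its room air group and each retina after hyperoxia was below it, though single retinas of the 2 exposures overlapped. For Spp1 the log2 change was 2.90 in WT lungs and -0.50 in WT retinas, and 2.99 in GSDMD-KO lungs and -0.77 in GSDMD-KO retinas. For Gpnmb it was 2.54 in WT lungs and -1.21 in WT retinas, and 2.73 in GSDMD-KO lungs and -1.15 in GSDMD-KO retinas. The difference between the tissues was not tested, because the tables, the exposures and the ages at collection differed, and in the retina no change of these 2 genes passed the test on its own. The value of Gpnmb in WT retinas was 0.28 without the 3 retinas that held lens transcripts, so its direction there rests on them, and they raise the room air mean of Gpnmb with which the single WT retinas were compared.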

How the results depend on the processing

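Of the values of single genes, 225 of 226 in the lung and 207 of 224 in the retina kept their direction and their call at 2-fold when the processing changed, and 234 of 240 and 162 of 192 when 1 library was left out. By direction and the side of an adjusted p of 0.1 alone, 221 of 226 and 205 of 224, and 221 of 240 and 165 of 192, were kept. In both counts, a value that passed in neither fit was kept if its direction held. From the room air genotype and interaction comparisons, only values with an unadjusted edgeR p under 0.05 were counted. Without a fold threshold the number of the 10 genes that changed was 8 in WT lungs, 9 in GSDMD-KO lungs and 2 between genotypes in room air lungs. The count of 2 in WT retinas was 5 with library totals alone, 4 with DESeq2, 1 with no filter on low counts, 1 in a fit of only the groups compared, 1 with Y-linked expression as a covariate and 0 without the lens-bearing retinas. Leaving out 1 library gave 0 to 3 in WT retinas, 2 to 5 in GSDMD-KO retinas and 3 to 4 in WT lungs, while the 4 of GSDMD-KO lungs and the 0 of the genotype and interaction tests were the same in each. Over all genes, edgeR and DESeq2 called 4 and 32 between KO-O2 and WT-O2 lungs, 23 and 72 between KO-RA and WT-RA lungs, and 1 and 109 in the interaction of the lung. In the retina they called 391 and 638 in WT, 420 and 655 in GSDMD-KO, 56 and 158 between KO-O2 and WT-O2, 1 and 59 between KO-RA and WT-RA, and 1 and 542 in the interaction. Library totals alone gave 777 in WT retinas and 43 between KO-RA and WT-RA retinas, where they set the median log2 change of all genes to 0.24 and 0.17, and to -0.19 in the interaction. Leaving out 1 library gave 1 to 109 between KO-RA and WT-RA lungs, 0 to 45 in the interaction of the lung, 0 to 340 in that of the retina, 196 to 504 in WT retinas, 151 to 409 in GSDMD-KO retinas, 6 to 83 between KO-O2 and WT-O2 retinas and 1 to 23 between KO-O2 and WT-O2 lungs.

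With Y-linked expression as a covariate, P2ry12 between KO-O2 and WT-O2 lungs was 0.12, and Tmem119 was -0.12 in WT and -0.22 in GSDMD-KO retinas. P2ry12 in WT retinas was 0.18 with library totals alone. Without the lens-bearing retinas, Tmem119 in WT retinas was -0.36 and Gpnmb 0.28. Leaving out 1 library also turned values that had not passed the test. Between KO-O2 and WT-O2 lungs the ranges were -0.026 to 0.082 for Tmem119, -0.31 to 0.19 for P2ry12 and -0.11 to 0.091 for Tyrobp. Between KO-O2 and WT-O2 retinas they were -0.019 to 0.22 for Cx3cr1, -0.21 to 0.49 for Gpnmb, -0.42 to 0.045 for Trem2, -0.52 to 0.58 for Tmem119 and -0.52 to 0.11 for Tyrobp. With hyperoxia, P2ry12 ranged from -0.092 to 0.33 in GSDMD-KO retinas and -0.40 to 0.45 in WT retinas, and Tmem119 from -0.49 to 0.76 in WT retinas. The causes were not tested. The low levels of Tmem119, Trem2 and Aif1 in the retina, near 1 to 5 CPM, limit what 3 retinas a group can show.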

Other observations

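The genes most like Gpnmb over the 12 libraries of a tissue were sought by Pearson r of log2 CPM, as a description. In the lung, Gpnmb was most like Tbc1d2 (r = 0.996), Aco1 (r = 0.992), Mroh1 (r = 0.990), Sulf2 (r = 0.990) and Icam1 (r = 0.990), the last a leukocyte adhesion molecule gene. In the retina it was most like Igfbp1 (r = 0.902), Gm13863 (r = 0.897), Gal3st2b (r = 0.895), Fam98a (r = 0.856) and Gm17542 (r = 0.856), so no gene was on both lists. No such list is given for the mean of Cx3cr1, P2ry12, Tmem119 and Csf1r, because these genes did not run together: in the lung Tmem119 had r = -0.62 with Cx3cr1 and r = -0.73 with P2ry12, and in the retina P2ry12 had r = -0.062 with Csf1r. The libraries of a tissue share 4 groups and an exposure, and each list holds the highest values out of all genes tested.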
